A study of Mus musculus with 2 samples.

Results

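Islet endothelial cells, the cells that line the capillaries of the pancreatic islet, were picked out of a single-cell RNA sequencing study of islets from NOD/ShiLtJ mice, in which diabetes of autoimmune origin arises on its own. A library is the set of cell barcodes sequenced together, and a UMI (unique molecular identifier) marks 1 captured RNA molecule. A barcode was taken as endothelial when it held at least 1000 UMIs, at least 200 genes, at most 20% mitochondrial UMIs, under 10% of its UMIs from the hormone genes Ins1, Ins2, Gcg, Sst and Ppy, and at least 4 UMIs summed over Pecam1, Cdh5, Plvap, Egfl7 and Flt1. It also had to hold at most 1 UMI of the CD3 genes Cd3d, Cd3e and Cd3g, 0 of Cd79a and Ms4a1, at most 3 of C1qa, C1qb and C1qc, at most 2 of Col1a1, Col3a1 and Pdgfrb, and 0 of Siglech. This gave 424 of 15958 barcodes, 289 of 8200 in the library with gluten and 135 of 7758 in the library with HC alone. The members were thus chosen by the measured UMIs of the genes just named, whose levels describe the choice and support nothing further.

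The library with gluten came from WT NOD mice of 15 weeks fed a diet of 16% HC and 4% gluten, and the library with HC alone from WT NOD mice of the same age fed 20% HC. The labels do not expand HC and give no sex. Islets of 3 mice went into each library together, and the mice of a pool cannot be told apart in the tables. With 1 library for each diet there is no replicate error and no test was possible, so a difference between diets cannot be told apart from a difference between 2 islet preparations. Brackets hold 95% intervals that cover counting error only, or, for the median of a gene list, the order-statistic interval over its genes.

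The islet capillary bed is dense and fenestrated, meaning that its endothelial cells carry pores bridged by diaphragms of the protein that Plvap encodes. Endocrine cells hold this bed in place by secreting VEGF-A, which acts on the receptors Kdr and Flt1 of endothelial cells. In islets invaded by lymphocytes, endothelial cells display adhesion molecules and chemokines, and some venules take on the form of high endothelial venules, the vessels through which lymphocytes enter lymph nodes. Interferon gamma from T cells raises MHC class I in endothelial cells and, through the transactivator Ciita, MHC class II.

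The endothelial cells with gluten held 1405002 UMIs, with a median of 3718 per cell (range 1079 to 42530), and those with HC alone held 935760, with a median of 5807 (range 1099 to 32272). The median number of genes was 1776 with gluten and 2504 with HC alone. Mitochondrial genes took a median of 3.12% of UMIs with gluten and 2.68% with HC alone, and hormone genes 1.18% with gluten and 0.557% with HC alone. At least 10 UMIs of 15 genes of acinar cells, the enzyme-making cells outside the islet, were present in 31 endothelial cells with gluten (10.7% [7.41, 14.9]) and in 0 with HC alone (0% [0, 2.70]). The libraries as a whole held 88268070 UMIs with gluten and 116900677 with HC alone and shared 15 barcode sequences, none of them among the endothelial cells.

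The sum of the 5 endothelial genes of the rule had a median of 45 UMIs per cell with gluten and 63 with HC alone. Barcodes just inside the threshold, with sums of 4 to 7, numbered 2 in each library, and those just outside, with a sum of 3, numbered 3 with gluten and 2 with HC alone. The 5 just outside had 0 UMIs of Esm1, Emcn and Igfbp7. One of the pair just inside with gluten held 98 UMIs of Krt8, a keratin of duct cells. The limits on genes of other lineages removed 95 of 384 barcodes with enough endothelial UMIs with gluten (24.7%) and 96 of 231 with HC alone (41.6%), most often for CD3 genes (49 and 44 barcodes) and stromal genes (25 and 26).

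The label held against genes that the rule did not use. Kdr, the main VEGF receptor, stood at 1590.0 CPM (counts per 1000000 UMIs summed over the endothelial cells of a library) with gluten and 1469 CPM with HC alone, with a UMI in 266 of 289 and 129 of 135 cells. Esm1, a secreted proteoglycan of VEGF-exposed endothelium, stood at 1617 CPM with gluten and 1050.5 with HC alone. In all other barcodes past the filters, Kdr was at 9.90 CPM with gluten and 8.11 with HC alone and Esm1 at 9.52 CPM with gluten and 5.72 with HC alone.

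Of genes outside the rule, 20 were chosen for the highest ratio of CPM in endothelial cells to CPM in the other barcodes, and the ratios below are therefore a description. Gpihbp1, the capillary anchor of lipoprotein lipase, stood at 315 CPM with gluten, against 1.55 CPM in other barcodes, and at 192 CPM with HC alone, against 0.660 CPM, ratios of 203 with gluten and 292 with HC alone. Emcn, the surface sialomucin endomucin, had ratios of 176 with gluten and 206 with HC alone. The angiopoietin receptor Tek had ratios of 156 with gluten and 201 with HC alone, and its partner Tie1 of 147 with gluten and 215 with HC alone. Robo4, Podxl, Adgrl4, Clec1a, Cd300lg, Car4, Btnl9, Col13a1, Rbp7, Mgll, Exoc3l2, Unc45b, Enpp6, Kdr, Esm1 and Gm32688 completed the 20.

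**Figure D1:**
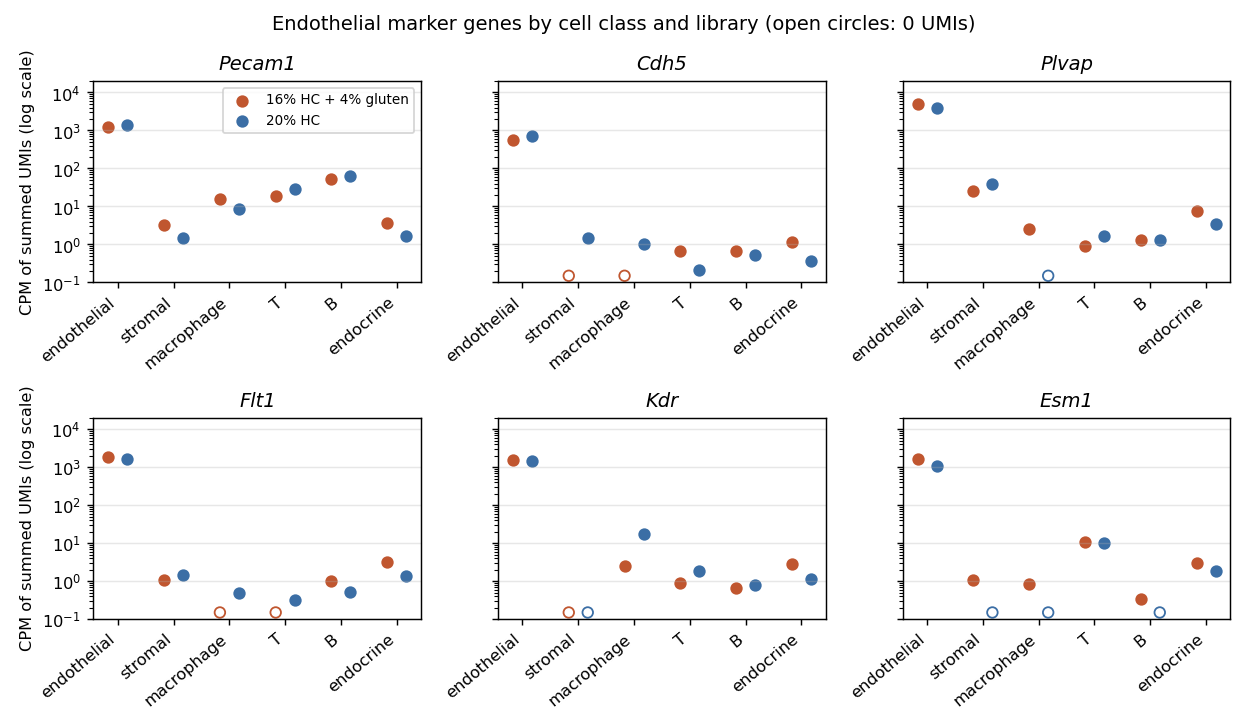
CPM of summed UMIs (log scale) of 6 endothelial markers in 6 cell classes, with the library on 16% HC + 4% gluten left of the library on 20% HC and open circles for 0 UMIs. Each marker stands above 500 CPM in endothelial cells and below 100 CPM in every other class shown. Of the 6 markers, 4 (Pecam1, Cdh5, Plvap and Flt1) were part of the rule. Stromal, macrophage, T and B barcodes were also limited to few UMIs of the rule's endothelial genes. Low levels of these 4 in those classes were thus set by the choice of barcodes. The endocrine class had no such limit.

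Endothelial cells took a larger share of barcodes with gluten. Of barcodes past the filters on UMIs, genes and mitochondrial share they made up 4.01% [3.57, 4.49] with gluten and 1.84% [1.54, 2.17] with HC alone, a difference of 2.17 points [1.63, 2.72]. Of hormone-poor barcodes they made up 7.74% [6.90, 8.64] with gluten and 3.04% [2.55, 3.59] with HC alone, a difference of 4.70 points [3.72, 5.71]. Counted against stromal cells, which share the vessel wall and the dissociation, there were 2.26 endothelial cells for each stromal cell with gluten and 1.67 with HC alone, and against macrophages 1.64 with gluten and 0.799 with HC alone. Against T cells, whose share was the smaller one with gluten, the numbers were 0.250 with gluten and 0.0641 with HC alone. The recovery of endothelial cells from the digest and their abundance in the islet cannot be told apart here.

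Between diets, 4136 genes were measured in endothelial cells, meaning that the library in which a gene's CPM was higher held 50 or more of its UMIs. Of these, 123 (2.97%) stood 2-fold or more above HC alone in the cells with gluten, and 35 (0.846%) stood 2-fold or more below. The second count was 22 without the highest cell of each gene, 23 without the barcodes of highest doublet score and 219 with no limits on genes of other lineages, and in cells thinned to 1000 UMIs the counts were 37 and 8. A log2 ratio is that of CPM with gluten over CPM with HC alone, and its interval lay above 0 for 508 genes (12.3%) and below 0 for 546 (13.2%). The median over all measured genes was 0.01. These shares are the background for the gene lists that follow, and a list's median runs over its members with at least 20 UMIs in both libraries together.

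**Figure D2:**
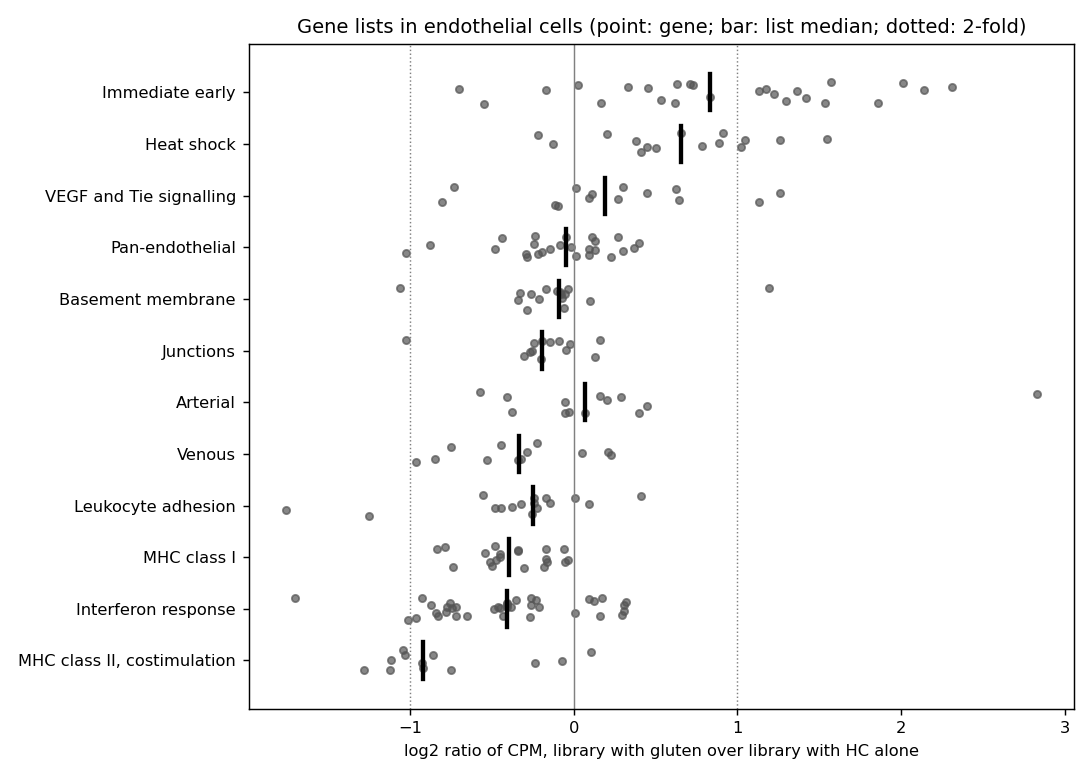
Log2 ratio of CPM, library with gluten over library with HC alone, of each gene with at least 20 UMIs in 12 lists in endothelial cells (grey points), with list medians as black bars and 2-fold as dotted lines. The immediate early and heat shock lists lie mostly right of 0, with medians of 0.83 and 0.65, and the MHC class I, interferon and MHC class II lists mostly left of it, with medians of -0.40, -0.41 and -0.92.

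Genes of the vascular lineage as a whole differed little. Of 25 pan-endothelial genes, 24 were measured, 0 were 2-fold higher and 1 was 2-fold lower, and the list median was -0.05 [-0.23, 0.11], or 0.16 with no limits on genes of other lineages. Eng, a co-receptor for BMP9, stood at 1098 CPM with gluten and 852 CPM with HC alone (log2 ratio 0.37 [0.24, 0.49]), and Emcn at 1970.1 CPM with gluten and 1679 with HC alone (0.23 [0.14, 0.32]). Cd34, a sialomucin of vessels, stood lower with gluten at 754 CPM, against 1050.5 CPM with HC alone (-0.48 [-0.61, -0.35]), as did the sphingosine-1-phosphate receptor S1pr1 at 261 CPM with gluten and 354 with HC alone (-0.44 [-0.66, -0.22]). The gene 2-fold lower was Cldn5, a claudin of tight endothelium, with 85 UMIs in 24 cells with gluten and 115 UMIs in 12 cells with HC alone (-1.02 [-1.44, -0.61], and -0.98 without the highest cell of each library). Its UMIs thus lay in few cells of either library. The water channel Aqp1 was found in 36 of 289 cells with gluten and 35 of 135 with HC alone.

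Among the VEGF and Tie genes, the receptors Kdr and Tek stood close together and Angpt2 stood higher with gluten. Of 17 members, 10 were measured, 1 was 2-fold higher and 0 were 2-fold lower, with intervals above 0 for 6 and below 0 for 1, and a list median of 0.19 [-0.11, 0.64]. Kdr had a log2 ratio of 0.11 [0.02, 0.21], Tek of 0.09 [-0.19, 0.38] and the co-receptor Nrp1 of 0.45 [0.32, 0.58]. Angpt2, the Tie2 antagonist that loosens vessels, stood at 56.2 CPM with gluten and 25.6 CPM with HC alone (1.13 [0.46, 1.86]). The list of tip cells, the leading cells of vessel sprouts, had a median of -0.05 [-0.50, 1.13], with 5 ratios above and 6 below 0 and intervals above 0 for 2 genes and below 0 for 1. Esm1 had a log2 ratio of 0.62 [0.51, 0.73]. With every cell thinned at random to 1000 UMIs, which removes the difference in depth, Esm1 was found in 178 of 289 cells with gluten (61.6% [55.7, 67.2]) and 49 of 135 with HC alone (36.3% [28.2, 45.0]), a difference of 25.3 points [15.1, 34.7]. T cells, which should lack it, had it in 1.13% with gluten and 1.38% with HC alone. The apelin receptor Aplnr stood the other way, at 119.6 CPM with gluten and 199 CPM with HC alone (-0.73 [-1.04, -0.42]).

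**Figure D3:**
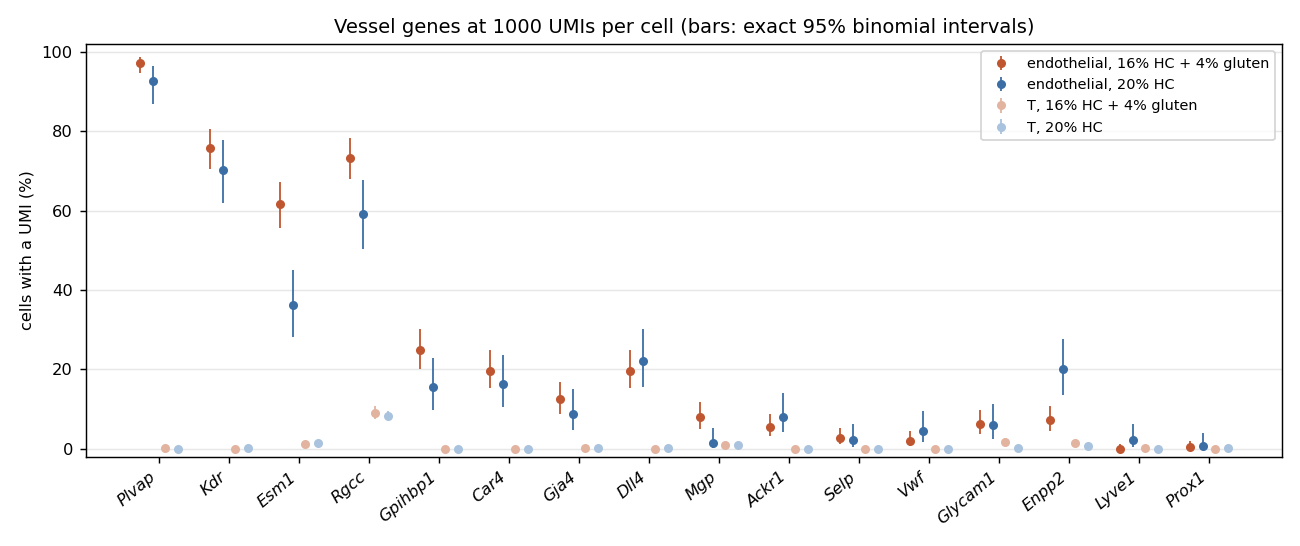
Percent of cells with at least 1 UMI of 16 vessel genes after thinning every cell to 1000 UMIs, in endothelial cells (dark) and T cells (pale) of the library on 16% HC + 4% gluten (orange, left) and of that on 20% HC (blue, right), with exact 95% binomial intervals. Esm1 was found in 61.6% of endothelial cells with gluten and 36.3% with HC alone, and Enpp2 in 7.27% with gluten and 20.0% with HC alone, whereas Lyve1 and Prox1 were near the level of T cells in both libraries.

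Capillary genes were found in more cells than the arterial or venous ones. In thinned cells, 93.1% with gluten and 93.3% with HC alone held at least 2 UMIs of the 10 capillary genes. Stromal cells with gluten did so in 53.1% and T cells with gluten in 1.73%. Rgcc, a hypoxia-responsive cell cycle regulator, and Gpihbp1 stood higher with gluten, at 1855 CPM against 1365 CPM with HC alone (0.44 [0.35, 0.54]) and at 315 against 192 CPM (0.71 [0.46, 0.97]). The fatty acid carrier Fabp4 stood lower, at 1428 CPM with gluten and 2339 CPM with HC alone (-0.71 [-0.80, -0.62]), and so did its relative Fabp5, at 181 CPM with gluten and 302 with HC alone (-0.74 [-0.99, -0.49]). Of the 10 capillary genes, 8 were measured and 0 were 2-fold apart in either direction.

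The arterial list had a median of 0.07 [-0.38, 0.40], with 7 ratios above and 6 below 0, and the venous list one of -0.33 [-0.75, 0.05], both with intervals that held 0. In thinned cells, 182 of 289 with gluten (63.0%) and 65 of 135 with HC alone (48.1%) held at least 2 UMIs of the 16 arterial genes, a difference of 14.8 points [4.71, 24.7]. At least 2 UMIs of the 12 venous genes were present in 19.4% with gluten and 35.6% with HC alone, a difference of -16.2 points [-25.5, -7.13]. Both sets were present in 27 cells with gluten and 18 with HC alone, and neither in 78 with gluten and 40 with HC alone, so these sets do not divide the cells cleanly. Of thinned stromal cells with gluten, 72.7% held at least 2 UMIs of the arterial set and 35.2% of the venous set, above the endothelial shares. T cells with gluten did so in 1.39% and 1.04%. The sets are thus not confined to endothelial cells. The gap connexin Gja4 and the Notch ligand Dll4, both arterial, had log2 ratios of 0.07 [-0.27, 0.41] and -0.05 [-0.33, 0.23]. Nrp1, which capillaries also express, gave 1453 of the arterial set's 3348 UMIs with gluten and 709 of 1769 with HC alone. Of the 12 measured arterial genes, Mgp was 2-fold higher, with 459 UMIs in 40 cells with gluten and 43 UMIs in 7 cells with HC alone, and 0 were 2-fold lower. Of the 40 cells with Mgp with gluten, 28 held 3 or more UMIs of the pericyte gene Rgs5, and the part of those cells and of Nrp1 in the arterial share was not tested.

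Of the 12 venous genes, 11 were measured, 0 were 2-fold apart, and 6 had intervals below 0. Il6st, the shared receptor subunit of the interleukin 6 family, stood at 177 CPM with gluten and 297 CPM with HC alone (log2 ratio -0.75). Slco2a1, a prostaglandin transporter, stood at 188 CPM with gluten and 338 with HC alone (-0.85 [-1.09, -0.61]), and Tmem252 at 92.5 CPM with gluten and 181 with HC alone (-0.96 [-1.31, -0.63]). These genes were lower with gluten, with UMIs in 98, 109 and 38 cells there and in 75, 81 and 39 cells with HC alone.

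Lymphatic endothelium was scarcely represented. Prox1, the master regulator of lymphatic identity, had 9 UMIs in 9 cells with gluten and 5 UMIs in 3 cells with HC alone. Lyve1, a hyaluronan receptor of lymphatic vessels, had 29 UMIs in 8 cells with gluten, 14 of them in 1 cell, and 83 UMIs in 9 cells with HC alone, 40 of them in 1 cell. Ccl21a, a gene of both the lymphatic and the high endothelial venule lists, had 4 UMIs in 2 cells with HC alone. With gluten it had 175 UMIs, all in 1 cell. That cell was among the 13 with 10 or more Glycam1 UMIs described below.

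Most junction genes had ratios below 0, though few had intervals below it. Of 15 junction genes, 12 were measured and Cldn5 alone was 2-fold lower, 11 of the 13 with a ratio lay below 0, 2 had intervals below 0 and 1 above, and the median was -0.19 [-0.27, -0.02]. Of 9 measured genes of fenestrae and caveolae, 0 were 2-fold apart and 5 had intervals below 0 and 1 above, with a median of -0.19 [-0.40, 0.13]. Cav1, the coat protein of caveolae, stood at 392 CPM with gluten and 451 CPM with HC alone (-0.20 [-0.39, -0.02]). Plvap, a gene of the rule, stood at 4826 CPM with gluten and 3830.0 CPM with HC alone (0.33 [0.27, 0.39]).

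The basement membrane list had a median of -0.09 [-0.29, -0.05], and 0 of 13 measured members were 2-fold apart. Its chains of type IV collagen were lower with gluten, Col4a1 at 1818 CPM against 2303 CPM with HC alone (-0.34 [-0.42, -0.26]) and Col4a2 at 995 against 1250.3 CPM (-0.33 [-0.44, -0.22]). The laminin chain Lama4 (-0.21 [-0.54, 0.12]), the perlecan gene Hspg2 (-0.06 [-0.24, 0.13]) and Nid1 (-0.08 [-0.31, 0.15]) had intervals that held 0.

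Adhesion genes for leukocytes stood lower with gluten without reaching 2-fold in most cases. Of 16 members 13 were measured, 0 were 2-fold higher and 1 was 2-fold lower, 7 had intervals below 0 and 0 above, and the median was -0.25 [-0.48, -0.15], or -0.054 with no limits on genes of other lineages. Vcam1, the ligand of the integrin VLA-4, stood at 68.3 CPM with gluten and 93.0 CPM with HC alone (-0.44 [-0.88, -0.01]), and was found in 29 cells with gluten and 25 with HC alone. Icam1, the ligand of LFA-1, stood at 109.6 CPM with gluten and 109.0 with HC alone (0.01 [-0.36, 0.38]), and Icam2 at 411 CPM with gluten and 486 with HC alone (-0.24 [-0.42, -0.06]). The inducible selectin Sele had 8 UMIs with gluten and 18 with HC alone, and the selectin Selp 84 UMIs in 18 cells with gluten and 70 UMIs in 17 cells with HC alone. The gene 2-fold lower was Bst1, a surface glycoprotein that takes part in leukocyte adhesion, with 30.6 CPM with gluten and 72.7 with HC alone (-1.25 [-1.83, -0.68]).

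Chemokines split. Cxcl9, an interferon gamma target that draws CXCR3-bearing T cells, stood at 499 CPM with gluten and 834 CPM with HC alone (-0.74 [-0.89, -0.59]). Its relative Cxcl10 stood the other way, at 683 CPM with gluten and 485 CPM with HC alone (0.49 [0.33, 0.66]). In thinned cells Cxcl9 was found in 10.7% with gluten and 25.2% with HC alone, a difference of -14.5 points [-23.0, -6.72]. T cells had it in 3.03% with gluten and 2.52% with HC alone. Cxcl10 was found in 12.5% [8.88, 16.8] of thinned endothelial cells with gluten and 9.63% [5.23, 15.9] with HC alone, and in 10.4% and 3.42% of T cells, so its share with gluten was close to that of a class that should lack it. The neutrophil chemokines Cxcl1 and Cxcl2 had log2 ratios of 0.86 [0.50, 1.23] and 1.29 [0.58, 2.06], with UMIs in 45 and 16 cells with gluten and 13 and 4 with HC alone. Of the 19 genes of the list, 11 were measured, Cxcl2 and Ccl21a were the 2 at least 2-fold higher and 0 were 2-fold lower.

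A small set of the chosen endothelial cells in each library carried the genes of high endothelial venules. Glycam1, the sulfated mucin that L-selectin on lymphocytes binds, had 8918 UMIs with gluten and 3797 with HC alone, 6347 and 4058 CPM, yet lay in 32 and 10 cells. Cells with 10 or more Glycam1 UMIs, a limit set after its values were seen, numbered 13 of 289 with gluten (4.50% [2.42, 7.57]) and 8 of 135 with HC alone (5.93% [2.59, 11.3]). They held 99.7% of the Glycam1 UMIs with gluten and 99.9% with HC alone. The 3 highest cells had 2230, 2038 and 1507 UMIs with gluten, against 1630, 640 and 542 with HC alone. Thinned to 1000 UMIs, at least 2 UMIs of the 7 genes of the high endothelial venule list were present in 4.50% of cells with gluten and 11.1% with HC alone, a difference of -6.61 points [-13.3, -1.38]. Before thinning, Enpp2 of that list had UMIs in 50 of the 276 cells under the Glycam1 limit with gluten. With HC alone it had them in 49 of 127 such cells, and its part in the difference was not tested.

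These Glycam1-rich cells shared further genes of the type. With gluten, Chst4, which sulfates L-selectin ligands, had UMIs in 7 of the 13 rich cells and 0 of the 276 others, and with HC alone in 5 of 8 and 1 of 127. Fut7, the fucosyltransferase of the same ligands, was found in 8 of 13 and 1 of 276 with gluten and in 5 of 8 and 2 of 127 with HC alone. Madcam1, the addressin of gut homing, was found in 5 of 13 and 5 of 276 with gluten and in 3 of 8 and 3 of 127 with HC alone. Enpp2, which makes lysophosphatidic acid, and the atypical chemokine receptor Ackr1 of venules were present in 13 of 13 rich cells with gluten and 8 of 8 with HC alone. Among the other cells Ackr1 was present in 11 of 276 with gluten and 10 of 127 with HC alone. Enpp2 was less confined to the rich cells, with UMIs in 50 of 276 others with gluten and 49 of 127 with HC alone.

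Kdr of the capillary list, Esm1 of the tip cell list and Plvap of the rule stood lower in the same cells. The other capillary genes were not counted there. Esm1 was found in 0 of 13 rich cells, against 217 of 276 others, with gluten, and in 0 of 8, against 74 of 127, with HC alone. Kdr stood at 146 CPM in rich cells and 1697 CPM in the others with HC alone, and Plvap at 1624 CPM in rich cells and 4209.6 CPM in the others. Lrg1, a glycoprotein of venular endothelium, stood at 4509.9 CPM in rich cells and 157 CPM in others with gluten, and at 4725 CPM in rich cells and 235 CPM in others with HC alone. Pecam1 and Cdh5, which all endothelium expresses, were present in 13 of 13 rich cells with gluten and 8 of 8 with HC alone. Both are genes of the rule, so their presence describes the choice of cells. The rich cells were deeper, with median UMIs of 11822 with gluten and 13808.5 with HC alone, against 3575.5 and 5681 in the others, a difference whose part in these counts was not tested. T cells held Glycam1 at 12.4 CPM with gluten and 1.75 with HC alone.

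RNA of the MHC class I antigen presentation list stood lower with gluten. All 20 members had at least 20 UMIs, 20 of 20 ratios lay below 0, 0 of 19 measured genes were 2-fold lower, and 13 had intervals below 0, against 13.2% of all measured genes. The median was -0.40 [-0.50, -0.17]. B2m, the light chain, stood at 3747 CPM with gluten and 5208 CPM with HC alone (-0.47 [-0.53, -0.42]), and the heavy chains H2-D1 and H2-K1 at 4871 CPM with gluten and 6159.7 with HC alone (-0.34 [-0.39, -0.29]) and at 4168 CPM with gluten and 5146 with HC alone (-0.30 [-0.36, -0.25]). The peptide transporter Tap1 stood at 170.1 CPM with gluten and 303 with HC alone (-0.84 [-1.09, -0.58]). Its partner Tap2 (-0.18 [-0.36, 0.01]) and tapasin, Tapbp (-0.04 [-0.23, 0.16]), had intervals that held 0.

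MHC class II RNA differed more, and fewer cells carried it with gluten. Cd74, the invariant chain, stood at 3105 CPM with gluten and 6391 CPM with HC alone (-1.04 [-1.10, -0.98]). The chains H2-Ab1, H2-Aa and H2-Eb1 stood at 1084 CPM with gluten and 2349 with HC alone (-1.12 [-1.21, -1.02]), 475 CPM with gluten and 1034 with HC alone (-1.12 [-1.27, -0.98]), and 582 CPM with gluten and 1192 with HC alone (-1.03 [-1.17, -0.90]). Of the 10 measured genes of the list of class II and costimulation, 5 were at least 2-fold lower with gluten, against 0.846% of all measured genes, and the median was -0.92 [-1.12, -0.24]. The fifth was H2-DMb2, part of the peptide exchanger, with 50 UMIs with gluten and 81 with HC alone (-1.28 [-1.82, -0.76]). The transactivator Ciita had 63 UMIs with gluten and 76 with HC alone (-0.86 [-1.36, -0.36]). Cd274, which encodes PD-L1, did not share the direction, at 114 CPM with gluten and 106 with HC alone (0.11 [-0.26, 0.48]), and the costimulatory genes Cd80, Cd86, Icosl and Cd40 had at most 20 UMIs in either library.

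In raw counts, the median cell held 1 UMI of Cd74 with gluten (quartiles 0 and 20) and 34 with HC alone (quartiles 15 and 56). A UMI of Cd74 was present in 162 of 289 cells with gluten and in 126 of 135 with HC alone. In cells thinned to 1000 UMIs, the 8 class II genes Cd74, H2-Aa, H2-Ab1, H2-Eb1, H2-DMa, H2-DMb1, H2-DMb2 and Ciita together had 0 UMIs in 136 cells with gluten (47.1%) and 11 with HC alone (8.15%). At least 5 were present in 94 cells with gluten (32.5%) and 110 with HC alone (81.5%), a difference of -49.0 points [-56.6, -39.7]. These cell limits were set after the values were seen. Before thinning, the cells with 0 had lower median depths than those with 5 or more, 3528.5 against 3892.5 UMIs with gluten and 4702 against 5696 UMIs with HC alone. The part of depth was not tested beyond the thinning.

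**Figure D4:**
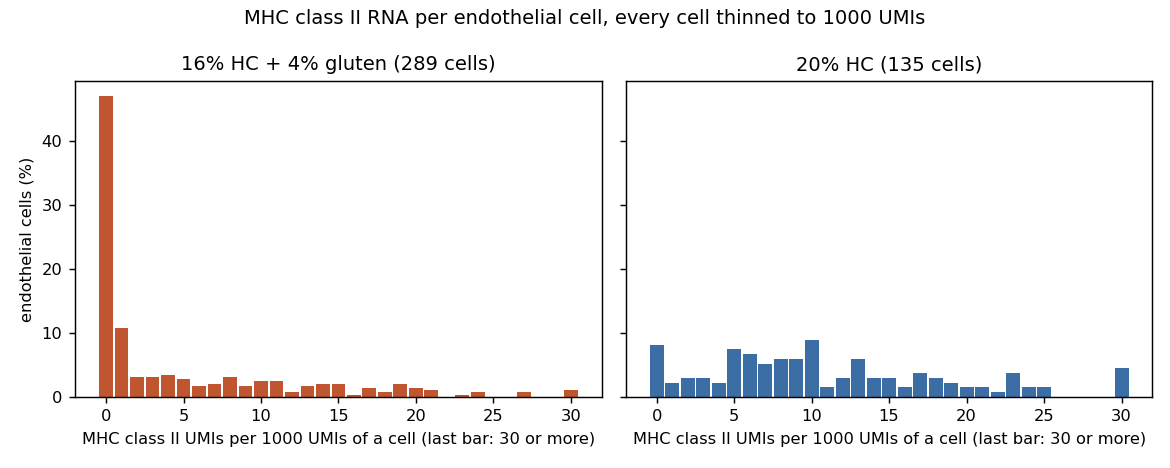
Percent of endothelial cells by the number of UMIs of 8 MHC class II genes after thinning every cell to 1000 UMIs, in the library on 16% HC + 4% gluten (left) and that on 20% HC (right), with 30 or more in the last bar. With gluten 47.1% of cells sat at 0 and 32.5% at 5 or more, and with HC alone 8.15% and 81.5%.

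The same count was taken in other classes, as the level that free RNA in the suspension leaves in cells that make little class II. T cells thinned in the same way had 5 or more in 6.84% with gluten and 4.18% with HC alone, and endocrine cells, of which 500 per library were drawn, in 4.80% and 6.60%. These shares lay under those of endothelial cells in both libraries. Stromal cells had 5 or more in 27.3% with gluten and 39.5% with HC alone. Under 8 other ways of choosing the endothelial cells, among them leaving out the barcodes with the highest doublet scores, those with acinar UMIs and those with pericyte genes, the share with 5 or more ran from 29.6% to 36.7% with gluten and from 77.9% to 84.6% with HC alone.

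Cells with 5 or more class II UMIs had close medians of class I and interferon genes in the 2 libraries. With 5 or more class II UMIs, the median cell held 28 class I UMIs per 1000 with gluten and 27 with HC alone, and 13 UMIs of the interferon list in both. With 0 class II UMIs the medians were 13.5 for class I and 4 for the interferon list with gluten, and 16 and 7 in the 11 such cells with HC alone. With 1 to 4 they were 19 for class I and 8 for the interferon list with gluten, and 16.5 and 5.5 in the 14 such cells with HC alone, so the direction differed between these levels. Over the cells of a library, class II and class I UMIs had a Spearman rho of 0.67 with gluten (n = 289) and 0.52 with HC alone (n = 135), and class II and interferon UMIs 0.60 and 0.31. These cells share a library and the fixed depth of 1000 UMIs, which ties the parts of a cell's total together, and the pooled mice may differ among themselves.

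Immediate early genes, by contrast, differed within those levels. Cells with 5 or more class II UMIs held a median of 17 immediate early UMIs with gluten and 9 with HC alone, and cells with 0 held 23 and 9. Cxcl9 was nearly absent from cells with 0 class II UMIs, with means of 0.00735 UMIs with gluten and 0 with HC alone, and averaged 1.15 UMIs with gluten and 1.16 with HC alone in cells with 5 or more.

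Class II promoters carry an X box, whose downstream part resembles a cyclic AMP response element, and a Y box, the letters ATTGG or CCAAT read on the other strand, at a near-fixed distance, and Ciita acts through the proteins bound there. The 160 bases before the RefSeq start (GRCm38.p6) of the class II genes were searched for TGANG followed by ATTGG with starts 20 to 30 bases apart on 1 strand. Of the 8 genes, 5 have a promoter in the table used, 6 promoters in all, and 4 of the 6 hold the pair, against 564 of 32851 promoters (1.72%). Those of H2-DMb2, H2-Aa and H2-Eb1 are shown because these genes stood at least 2-fold lower together with gluten, with the pair in capitals and each sequence read 5′ to 3′ on the strand of its gene. They lie at chr17:34145089-34145248 (plus strand) for H2-DMb2, chr17:34287824-34287983 (minus strand) for H2-Aa and chr17:34305707-34305866 (plus strand) for H2-Eb1. By GENCODE vM21 the windows of H2-Aa and H2-Eb1 end just before the gene, and that of H2-DMb2 lies in the first intron of its longest transcript and runs into the first exon of a shorter one.
H2-DMb2: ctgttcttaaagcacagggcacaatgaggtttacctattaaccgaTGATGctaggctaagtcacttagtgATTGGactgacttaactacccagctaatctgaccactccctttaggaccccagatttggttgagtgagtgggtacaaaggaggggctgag
H2-Aa: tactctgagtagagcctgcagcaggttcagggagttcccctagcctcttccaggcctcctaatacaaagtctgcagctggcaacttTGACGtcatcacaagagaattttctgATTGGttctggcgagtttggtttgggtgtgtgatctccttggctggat
H2-Eb1: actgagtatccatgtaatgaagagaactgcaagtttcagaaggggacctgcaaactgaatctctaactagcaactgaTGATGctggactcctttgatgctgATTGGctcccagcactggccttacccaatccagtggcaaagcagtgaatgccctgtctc
The Y box letters begin 90 bases before the start in H2-DMb2, 48 in H2-Aa and 59 in H2-Eb1, and the letter pairs begin 25, 26 and 24 bases apart. Of the 6 promoters, that of H2-Aa holds the full element TGACGTCA, which 1.39% of all promoters hold on either strand. A match of letters is a description of the sequence and not a bound site. The sequences are those of the reference, which comes from another strain, and the NOD promoters were not examined.

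Most interferon-induced genes stood lower with gluten, 28 of the 37 with a ratio lying below 0 and 9 above. Of 38 members 30 were measured, 20 had intervals below 0 and 1 above, 1 was 2-fold lower, and the median was -0.41 [-0.72, -0.26]. Among the guanylate-binding proteins, GTPases that interferon gamma induces, Gbp7 stood at 322 CPM with gluten and 649.7 CPM with HC alone (-1.01 [-1.19, -0.83]), Gbp4 at 251 CPM with gluten and 491 with HC alone (-0.97 [-1.17, -0.76]) and Gbp5 at 127 CPM with gluten and 243 with HC alone (-0.93 [-1.22, -0.64]). Ly6a, a surface marker that interferon raises, stood at 2528 CPM with gluten and 3969 with HC alone (-0.65 [-0.72, -0.58]). Isg15, a ubiquitin-like protein of the type I response, was the member with an interval above 0, at 206 CPM with gluten and 166 with HC alone (0.32 [0.03, 0.61]). Ifit1, Ifit3, Oasl2 and Ifi44 had ratios from 0.10 to 0.31 with intervals that held 0. The element GAAA, any 2 bases and GAAA again, which interferon-activated factors bind, lies within 160 bases before the start of 15 of the 28 list genes in the promoter table, on either strand, against 1.72% of all promoters, and both Isg15 and Gbp7 are among the 15.

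Immediate early genes, which cells switch on within minutes of a stimulus, stood high with gluten as a group. Of 26 members 23 were measured, 11 were at least 2-fold higher against 2.97% of all measured genes, 19 had intervals above 0 and 2 below, and the median was 0.83 [0.54, 1.36]. Atf3, a stress-induced transcription factor, stood at 335 CPM with gluten and 67.3 CPM with HC alone (2.31 [1.93, 2.72]). Egr1 stood at 1861 CPM with gluten and 462 with HC alone (2.01 [1.86, 2.16]), Junb at 3977 CPM with gluten and 1371 with HC alone (1.54 [1.45, 1.62]) and Fos at 2391 CPM with gluten and 1060.1 with HC alone (1.17 [1.07, 1.28]). The median cell held 5 Egr1 UMIs with gluten and 1 with HC alone, at lower depth. In thinned cells Egr1 was found in 67.1% with gluten and 22.2% with HC alone, and in 11.5% and 6.64% of T cells. Klf2, a factor that laminar blood flow sustains in endothelium, stood the other way at 914 CPM with gluten and 1337 with HC alone (-0.55 [-0.66, -0.44]), as did Cebpd at 197 CPM with gluten and 321 with HC alone (-0.70 [-0.94, -0.46]).

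Heat shock genes stood higher with gluten too. Of 15 heat shock genes 14 were measured, 4 were 2-fold higher, 11 had intervals above 0 and 0 below, and the median was 0.65 [0.38, 1.02]. The cochaperone Dnajb1 stood at 272 CPM with gluten and 93.0 CPM with HC alone (1.55 [1.21, 1.90]), Hsp90aa1 at 660.5 CPM with gluten and 276 with HC alone (1.26 [1.06, 1.47]) and Hspb1 at 1569 CPM with gluten and 759.8 with HC alone (1.05 [0.92, 1.17]). The mitochondrial chaperones Hspd1 and Hspe1 had intervals that held 0. Lists of cell death and p53 genes, with a median of 0.23 [-0.19, 0.86] and 5 of 15 ratios below 0, and of metal-binding genes, with 0.17 [-0.59, 3.11] and 3 of 7 below 0, had intervals that held 0. So did the list of secreted vessel factors that holds Ccn1 and Ccn2, with 0.39 [-0.32, 1.62] and 3 of 12 below 0. Among single genes, the growth arrest gene Gadd45b stood at 466 CPM with gluten and 86.6 with HC alone (2.43 [2.09, 2.78]), the matricellular Ccn1 at 855 CPM with gluten and 160.3 with HC alone (2.41 [2.17, 2.67]), its relative Ccn2 at 118 CPM with gluten and 38.5 with HC alone (1.62 [1.09, 2.18]), and the metallothionein Mt1 at 69.8 CPM with gluten and 21.4 with HC alone (1.71 [1.00, 2.48]). Ccn1 was found in 51.2% of thinned cells with gluten and 11.9% with HC alone, and in 0.346% and 0.0475% of T cells.

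Of the BMP and TGF beta genes 12 were measured, 7 had intervals above 0, against 12.3% of all measured genes, and 2 below, 0 were 2-fold apart, and the median was 0.24 [-0.08, 0.37]. Of the Notch genes 8 were measured, with intervals above 0 for 1 and below 0 for 1 and a median of -0.05 [-0.74, 0.39]. Id2, a target of BMP signalling, stood at 199 CPM with gluten and 112 CPM with HC alone (0.83 [0.50, 1.17]), while Id1 and Id3 had ratios of 0.28 and 0.23. The Notch target Hes1 stood at 319.6 CPM with gluten and 129 with HC alone (1.31 [1.01, 1.61]), whereas the Notch targets Hey1 (0.29 [-0.38, 0.98]) and Hey2 (0.01 [-0.57, 0.60]) had intervals that held 0 and Nrarp was lower at 110.3 CPM with gluten and 184 with HC alone (-0.74 [-1.06, -0.41]).

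The same lists were set beside those of 5 other cell classes of the 2 libraries, which share the preparations, so the values are given side by side with no comparison between classes. The immediate early median was 0.83 [0.54, 1.36] in endothelial cells, 1.69 in stromal cells, 0.84 in macrophages, 0.37 in T cells, 0.37 in B cells and 1.42 in endocrine cells. The heat shock median was 0.65 in endothelial cells and between 0.30 and 0.77 in the others. MHC class I stood at -0.40 in endothelial cells, -0.69 in stromal cells, -0.38 in endocrine cells, and -0.14, -0.08 and -0.21 in macrophages, T cells and B cells. The class II and costimulation list had medians of -0.92 in endothelial cells, -0.81 in stromal cells and -0.27 in endocrine cells, and of -0.03, 0.48 and -0.08 in macrophages, T cells and B cells. The interferon list lay below 0 in all 6 classes, at -0.41 in endothelial cells and from -0.87 to -0.30 in the others. The median over all measured genes was 0.01 in endothelial, 0.008 in stromal and 0.17 in endocrine cells. It was -0.13 in macrophages, -0.11 in T cells and -0.16 in B cells. The class I intervals of macrophages, T cells and B cells held the value of their class. So did the interferon intervals of macrophages and T cells, while that of B cells lay below it.

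**Figure D5:**
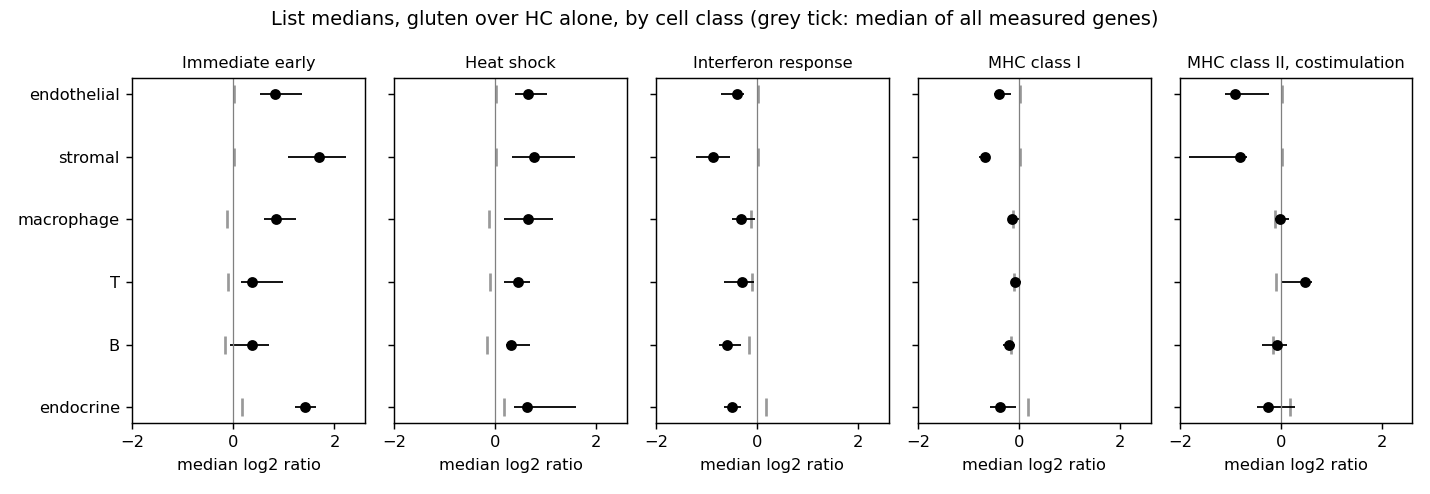
Median log2 ratio, library with gluten over library with HC alone, of 5 gene lists in 6 cell classes (points), with order-statistic 95% intervals over the genes of each list (lines) and the median of all measured genes of the class (grey ticks). The immediate early and heat shock medians lie right of 0 in all 6 classes, the interferon medians left of 0 in all 6, and class II has its lowest medians in endothelial (-0.92) and stromal (-0.81) cells.

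Of all measured genes, 15 in each direction were named for the interval bound farthest from 0. Among the 15 lower with gluten were the class II genes H2-Ab1, Cd74, H2-Aa, H2-Eb1 and H2-DMb2 and the interferon gene Gbp7. Csf2rb, the shared beta chain of the receptors for GM-CSF and interleukin 3, stood at 49.1 CPM with gluten and 136 CPM with HC alone (-1.47 [-1.91, -1.03]). Fjx1, at 86.1 CPM with gluten and 251 with HC alone (-1.54 [-1.87, -1.22]), was found in 12 of the 13 Glycam1-rich cells with gluten and 8 of the 8 with HC alone. It stood at 552 CPM in the rich cells with gluten and 1325 CPM in those with HC alone, and at 18.7 CPM in the other cells with gluten and 66.4 CPM in those with HC alone, so it was lower with gluten in both sets. The other 7 were Ptn, Ltb, Lyve1, Lsp1, Serpinb1a, Cmah and Fam111a. Ptn, a heparin-binding growth factor, had 45 of its 56 UMIs with HC alone in 1 cell. Ltb, Lyve1 and Lsp1 also lay in few cells with HC alone, 6, 9 and 6. Of their UMIs there, 35 of 74, 40 of 83 and 22 of 57 were in 1 cell. All 15 stayed 2-fold lower without the highest cell of each library.

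The 15 genes higher with gluten were mostly genes of other cell types. The globins Hbb-bs, Hba-a1 and Hbb-bt had 1158 of 1168, 598 of 602 and 254 of 255 UMIs with gluten in 1 cell. Spp1 and the keratins Krt8, Krt18 and Krt19, genes of duct cells, lay mainly in 3 cells with gluten, which had 187 to 234 ductal UMIs each and sums of 6, 33 and 45 UMIs over the 5 endothelial genes of the rule. Prss2, a trypsinogen, was spread over 53 cells with gluten and 7 with HC alone, and Ttr, an endocrine gene, over 43 and 11. The rest were Cldn3, Ccl21a, Wfdc18, 2210010C04Rik, Tm4sf4 and Sfn. Without the highest cell of each library 11 of the 15 remained 2-fold higher.

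Across all 123 genes at least 2-fold higher, 9 had 50% or more of their UMIs with gluten in 1 cell, and 31 had UMIs in at least 100 of the 289 cells. Those 31 included 9 immediate early and 4 heat shock genes and 0 of the acinar, ductal or erythroid markers. Among the broadly found genes outside the lists, named after their values were seen, were Ppp1r15a, which restores translation after stress, at 542 CPM with gluten and 216 CPM with HC alone (1.33 [1.10, 1.56]), the polo-like kinase Plk2 at 470.5 CPM with gluten and 184 with HC alone (1.36 [1.11, 1.61]) and the cyclin Ccnl1 at 480.4 CPM with gluten and 122 with HC alone (1.98 [1.69, 2.28]).

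Markers of other cell types in the endothelial cells were summed by list. The rule fixed Cd79a and Ms4a1 at 0 and capped hormone, CD3, C1q, Col1a1, Col3a1 and Pdgfrb UMIs. The part of those genes in the sums describes the selection. The 15 acinar genes came to 672 CPM with gluten and 73.7 CPM with HC alone, 7 of them 2-fold higher with gluten, the 7 ductal genes to 468 CPM with gluten and 20.3 with HC alone, and the 5 erythroid genes to 1448 CPM with gluten and 2.14 with HC alone. Genes of beta cells came to 9177 CPM with gluten and 5196 with HC alone, and those of alpha cells to 1145 CPM with gluten and 641 with HC alone. Genes of delta and PP cells came to 1246 CPM with gluten, 1106 of their 1750 UMIs lying in 1 cell, and 311 CPM with HC alone. Pericyte genes came to 325 CPM with gluten and 71.6 with HC alone, and those of fibroblasts to 6.41 CPM with gluten and 8.55 with HC alone. T cell genes came to 4.98 CPM with gluten and 40.6 with HC alone, with Cd3e and Cd8a at 0 in both libraries, B cell genes to 214 CPM with gluten and 206 with HC alone, with Cd79a and Ms4a1 at 0, and macrophage genes to 790 CPM with gluten and 726 with HC alone. Without the 31 cells with 10 or more acinar UMIs, the class II shares above were 30.2% with 5 or more and 47.3% with 0 with gluten. The part of the other markers in the diet ratios was not tested.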

How the data were processed

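Islets were dissociated to single cells and sequenced as 1 10x Genomics library per diet, 2 in all, each from 3 pooled mice. The authors deposited, per library, a table of raw UMI counts by gene and barcode, not normalized. The submitters' processing notes name Cell Ranger 4.0.0 and mm10, and the sources used here do not give the annotation release or how barcodes were called. mm10 comes from another strain, so reads of H2 genes, whose NOD alleles differ, may align less well in both libraries. Near-identical genes (H2-DMb1 and H2-DMb2, the class I genes, Hspa1a and Hspa1b, the globins) can share reads, so the split between them is uncertain. Of 31053 gene identifiers, 30934 matched a symbol in GENCODE vM21.

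Counts were summed over endothelial cells per library and scaled to CPM. Log2 ratios carry exact conditional binomial intervals, shares Clopper-Pearson and differences of shares Newcombe intervals, all at 95% and covering counting error only. A side with 0 UMIs was set to 3 counts for a ratio. Per-cell values used cells thinned to 1000 UMIs (seed 1). The other classes were endocrine (at least 10% hormone UMIs), stromal, macrophage, T and B cells by their own marker limits. Barcodes of those classes other than endocrine could also hold at most 1 UMI summed over the endothelial genes of the rule. No doublet caller was used beyond the limits of the rule. Scrublet, whose own threshold marked 117 barcodes (1.62%) with gluten and 151 (2.06%) with HC alone, served as an alternative with its top 6% left out, 9 of the endothelial cells with gluten and 12 with HC alone among them. The count and ratio steps were tested on simulated data.

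The endothelial cells, the 44 gene lists and the motifs were chosen with earlier results of these data known. Genes were named from the lists, or as the 15 genes per direction at least 2-fold apart whose interval bound lay farthest from 0, or as the 20 with the highest ratio over other barcodes; genes named after their values were seen are marked so. Alternatives were other cell limits, other scalings (TMM with edgeR 4.0.16, median of ratios), other count limits and thinning. Python 3.11.15, numpy 2.4.6, scipy 1.17.1 and pandas 2.3.3 were used.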

Additional observations from a re-analysis of the deposited data

How the results depend on the processing

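No paired analysis was possible because each diet had 1 library, and for the same reason no replicate could be left out. Of 168 values under alternative settings, 154 stayed within the limits set for a move, 14 moved, and the pan-endothelial median, whose interval held 0, was the only list median named here that changed sign. For a median or a share, the limit was the interval of the main value itself. Some settings could move a value little, and that of at least 10 UMIs left every list median unchanged. The count of genes at least 2-fold higher with gluten, 123, was 37 with every cell thinned to 1000 UMIs, 590 with genes of at least 10 UMIs and 893 with no limit on counts. The count of genes at least 2-fold lower, 35, was 8, 312 and 703 under the same settings. It was also 23 without the 6% of barcodes with the highest Scrublet score, 219 with no limits on genes of other lineages and 22 without the highest cell of each gene, the last 2 being settings added after the data were seen. Higher genes made up 77.8% of the genes 2-fold apart, 84.3% under TMM and 42.2% with no limits on genes of other lineages; TMM moved all log2 ratios by 0.04. With no such limits, the pan-endothelial median was 0.16 and the adhesion median -0.054, and 384 cells with gluten and 231 with HC alone entered. The class II median was -1.13 in thinned cells. The difference in the share of hormone-poor barcodes, 4.70 points, was 6.39 with 2 times the minimum of UMIs per barcode and 6.89 with hormone UMIs under 2%. The causes were not tested. The immediate early, heat shock, class I, interferon and VEGF medians stayed within 0.82 to 0.97, 0.65 to 0.90, -0.45 to -0.31, -0.49 to -0.36 and 0.09 to 0.39. With 135 cells in the smaller library, shares of rare cells carry wide intervals, and genes under 50 UMIs were not called.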

Other observations

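Some endothelial cells carried genes of pericytes, the contractile cells wrapped around capillaries. At least 3 UMIs of Rgs5, a pericyte marker and a limit set after the values were seen, were present in 35 of 289 cells with gluten (12.1%) and 5 of 135 with HC alone (3.70%). Mgp, an inhibitor of calcification, was found in 28 of the 35 and 12 of the 254 other cells with gluten, and in 2 of the 5 and 5 of the 130 others with HC alone. Notch3 and Abcc9, further pericyte genes, were found in 7 and 6 of the 35 and in 1 of the 254 each with gluten, and Acta2 in 7 and 0. Endothelial genes outside the rule were present in the same cells, with Esm1 in 31 of 35 and Kdr in 34 with gluten. Plvap was present in 35 of 35, but it is a gene of the rule and its presence describes the choice of cells. Rgs5 as a whole stood at 262 CPM with gluten and 64.1 CPM with HC alone. Mgp, the 1 gene of the arterial list at least 2-fold higher with gluten, stood at 327 CPM with gluten and 46.0 CPM with HC alone. After thinning to 1000 UMIs, Rgs5 was found in 10.4% of cells with gluten and 3.70% with HC alone, a difference of 6.68 points [1.12, 11.2], and Mgp in 7.96% with gluten and 1.48% with HC alone, a difference of 6.48 points [1.91, 10.3].

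The cell cycle list was found with at least 1 UMI in 145 of 289 thinned cells with gluten (50.2%) and 65 of 135 with HC alone (48.1%), while 3 of its genes lay in few cells. Mki67 had 14 UMIs in 7 cells with gluten and 19 UMIs in 4 cells with HC alone, of which 4 and 12 lay in 1 cell. Top2a had 11 UMIs in 8 cells with gluten and 26 UMIs in 5 cells with HC alone, and Birc5 13 UMIs in 4 cells with gluten and 27 UMIs in 3 cells with HC alone. The list had a median log2 ratio of -0.56 [-1.64, -0.07] with 5 of 18 members measured. In thinned cells 15.6% with gluten and 17.0% with HC alone held at least 2 UMIs of the list, a difference of -1.47 points [-9.60, 5.65].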
